A study of Mus musculus with 4 samples.

Results

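Genes of the lateral plate, vascular and blood mesoderm were followed in embryoid bodies (EBs), clumps of mouse embryonic stem cells (mESCs) that differentiate after LIF withdrawal. The group held 10 genes of the 24347 gene rows measured, taken by symbol: the receptor gene *Kdr*, the endothelial and blood transcription factor genes *Etv2*, *Tal1* and *Lmo2*, and the lateral plate and cardiac transcription factor genes *Hand1*, *Hand2*, *Tbx20*, *Isl1*, *Foxf1* and *Nkx2-5*. RNA-seq was performed on day 3 EBs of 2 genotypes on the 129/Ola strain background, WT mESCs and mESCs carrying a CRISPR/Cas9 deletion of the promoter of *Gm11549*, the gene that encodes the micropeptide NEMEP (promoter KO). There were 2 samples per genotype, called WT 1 and WT 2 or KO 1 and KO 2 below, all grown in serum medium without LIF and with no further treatment. The study describes the samples of a genotype as biologically independent, but whether the KO samples are separate clones is not given in the sources used here, so p-values measure the spread between these samples. The comparison asked which of these genes were already on in WT EBs at day 3, and how their levels differed in promoter KO EBs.

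Lateral plate mesoderm leaves the primitive streak and gives rise to heart, blood vessels, blood and the mesoderm of the extraembryonic membranes. KDR, the main receptor for VEGF-A, marks progenitors of endothelium and blood. ETV2 is an ETS factor that acts at the top of the endothelial and blood program, and TAL1 and LMO2 work together in a complex with E proteins, LDB1 and GATA factors. HAND1 and HAND2 are bHLH factors of extraembryonic and lateral plate mesoderm and of the heart, ISL1, TBX20 and NKX2-5 act in cardiac progenitors, and FOXF1 acts in splanchnic and extraembryonic mesoderm.

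Levels are in FPKM, the fragments per kilobase of a transcript after scaling for the size of the library, and can be compared between genes. From the lowest values of genes with 1 annotated transcript, the depth was estimated at 24700000 fragments in WT 1, 22000000 in WT 2, 21600000 in KO 1 and 20200000 in KO 2. Between 55.3% and 63.7% of values up to 10 fragments came within 0.1 of a whole number, so fragment numbers given below are approximate. The targeted gene *Gm11549* was at 0.75 FPKM in WT 1 and 0.522 in WT 2, against 0.0659 in KO 2, and it was listed at 0 in KO 1. Both promoter KO samples were therefore below both WT samples, in the direction of their labels. The labels call the cells mesendoderm, and all 10 mesendoderm markers examined (*T*, *Mixl1*, *Eomes*, *Gsc*, *Foxa2*, *Sox17*, *Mesp1*, *Lhx1*, *Evx1* and *Gata6*) reached 1 FPKM in both WT samples, the most abundant being *T* at 306 and 448 FPKM.

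The WT samples differed from each other in the genes studied here. All 10 members were higher in WT 2 than in WT 1, whereas 49.1% of the 11941 tested genes were. Only 4 members are among the tested genes, and the lists below also hold untested genes, so this share is not a matched background. Summed over the members, the level was 34.1 FPKM in WT 1 and 68.1 in WT 2, against 14 and 12.3 in KO 1 and KO 2. *Etv2* made up 50.9% of this over the 4 samples, so the sum does not describe each member. *Kdr* and *Hand1* exceeded a difference of 1 on the log2(FPKM + 1) scale between the WT samples, as did 0.938% of tested genes in that direction. WT 2 was also the higher WT sample for 21 of 27 lateral plate and extraembryonic mesoderm genes, 22 of 25 cardiac genes and 18 of 20 nascent mesoderm genes, and for 9 of 14 paraxial mesoderm, 17 of 25 endothelial and 11 of 20 blood genes. For example, *Msgn1*, a regulator of presomitic mesoderm named after its values were seen, was at 0.846 FPKM in WT 1 and 22.6 in WT 2. Outside mesoderm, WT 2 was higher for 12 of 17 trophoblast, 15 of 24 extraembryonic endoderm and 5 of 17 neuroectoderm genes. It was also higher for 9 of 9 VEGF ligand and receptor genes and 7 of 10 partners of the TAL1 and LMO2 complex. Spearman's correlation over all gene rows was 0.9805 for the WT pair and 0.9797 for the KO pair. Results for the tested members and counts of called list genes are therefore given with and without each WT sample where they rest on it. List medians and fold changes of list genes are given with all 4 samples only.

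**Figure D1:**
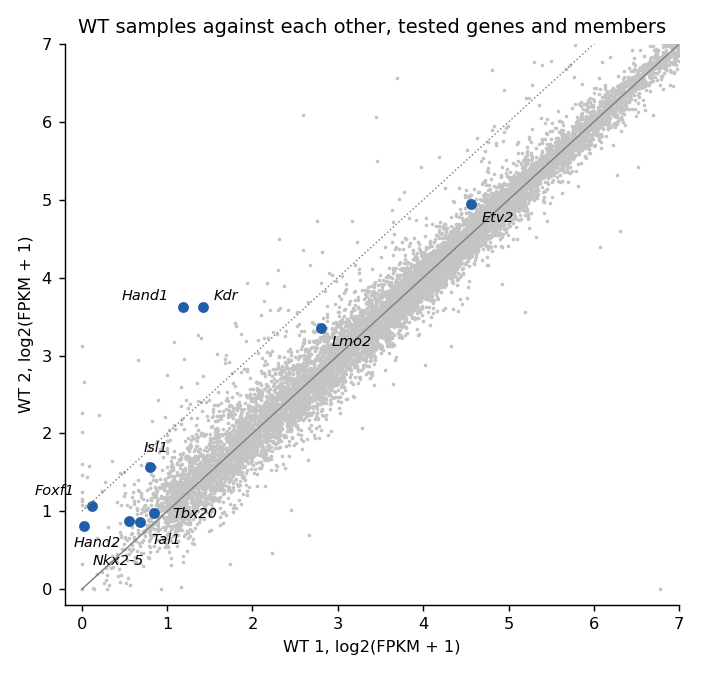
The level of each gene in WT 2 (y axis) against WT 1 (x axis), both as log2(FPKM + 1). Grey points are the 11941 tested genes, blue points are the 10 members, the solid line marks equal levels, the dotted line a difference of 1, and genes above 7 on either axis lie outside the plot. All members lie above the solid line, and *Kdr* and *Hand1* lie above the dotted line.

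At day 3, 4 of the 10 members (*Kdr*, *Etv2*, *Lmo2* and *Hand1*) were expressed in WT EBs, taken as at least 1 FPKM in both WT samples, a level reached by 47.1% of all gene rows. *Tal1*, *Tbx20*, *Isl1* and *Nkx2-5* were low, at 0.1 FPKM or more in both WT samples without reaching 1 in both. *Hand2* and *Foxf1* were under 0.1 FPKM in WT 1 and at 0.76 and 1.1 in WT 2, so their presence at day 3 differed between the WT samples. In WT 2 alone, 6 members reached 1 FPKM, with *Isl1* and *Foxf1* added, and in WT 1 alone the number was 4. In promoter KO EBs, 2 members, *Etv2* and *Lmo2*, reached 1 FPKM in both samples, and 7 were under 1 FPKM in both. Lower RNA in the EBs can come from fewer cells of a type or from less RNA per cell, which cannot be told apart in bulk samples.

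**Figure D2:**
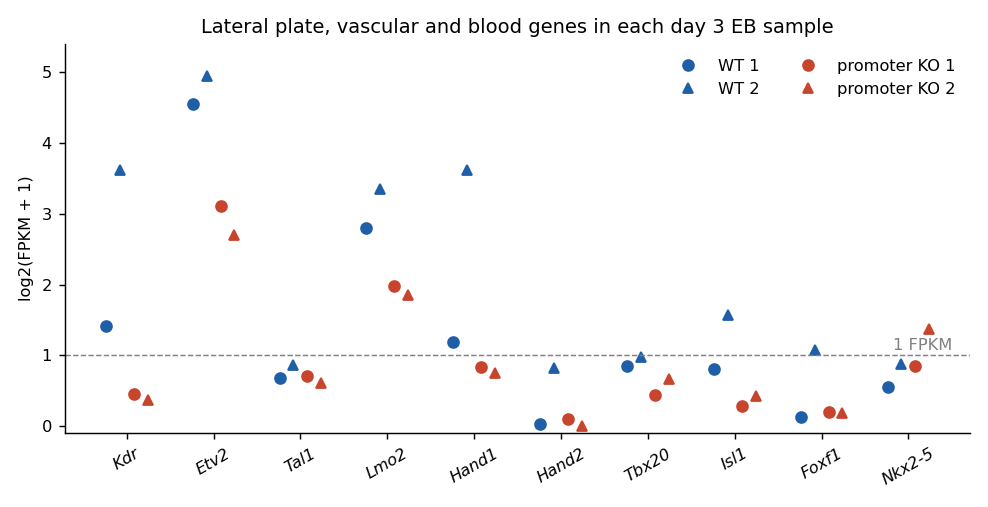
The level of each of the 10 members (x axis) as log2(FPKM + 1) (y axis) in each sample, with WT in blue, promoter KO in red, circles for sample 1 and triangles for sample 2 of a genotype. The dashed line marks 1 FPKM. *Etv2* was the most abundant member in all 4 samples, and WT 2 stood far above the other 3 samples for *Kdr* and *Hand1*.

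Of the 10 members, 4 passed the filter of 1 FPKM in at least 2 samples and were tested with limma across all 11941 genes that passed. *Etv2* and *Lmo2* were lower in promoter KO EBs (adjusted p under 0.05, Benjamini-Hochberg), a call made for 1.89% of tested genes in that direction. None of the members was called higher by limma, against 1.68% of tested genes (adjusted p under 0.05). None was higher at an unadjusted limma p under 0.05 either, a threshold for which no share of tested genes is given. With a fold change of 2 and an unadjusted p under 0.05, 3 members were lower (*Kdr*, *Etv2* and *Lmo2*), beside 1.63% of tested genes lower and 1.40% higher. *Kdr* and *Hand1* were under 1 FPKM in KO 1 and KO 2 and passed the filter through the WT samples alone, so their entry into the test depended on the same difference, and the counts of tested members are a description. Counting all 10 members, KO 1 and KO 2 were each lower than either WT sample for 6 (*Kdr*, *Etv2*, *Lmo2*, *Hand1*, *Tbx20* and *Isl1*), the genotypes overlapped for 4, and no member had KO 1 and KO 2 above WT. Among the 18215 gene rows with any value above 0, 26.6% lay below, 43.8% overlapped and 29.6% lay above. The 6 members became 9 without WT 1 (38.4% of gene rows), 6 without WT 2 (35.9%), 8 without KO 1 (34.3%) and 6 without KO 2 (36.9%), alternatives chosen after seeing the data. The number of members called lower was 4 without WT 1 (*Kdr* and *Hand1* added), where 114 of 11941 tested genes were lower, and 1 without KO 2, where 248 were. Without WT 2 or without KO 1 limma called 0 members and 0 genes of the whole table. For 2 samples per genotype the smallest two-sided p of an exact permutation test is 0.333, so the tests rest on the spread that limma shares between genes. In fits that leave 1 sample of a genotype, the spread between samples comes from the other genotype alone. Fold changes are on the log2(FPKM + 1) scale, which understates those of low genes.

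*Etv2* (chromosome 7, 30633616 to 30635852, minus strand, GRCm38) had 22.5 FPKM in WT 1, 29.8 in WT 2, 7.64 in KO 1 and 5.5 in KO 2. These values correspond to about 471, 556, 140 and 94 fragments. The genotypes did not overlap, and the promoter KO mean of 6.57 ± 1.51 FPKM (SD, n = 2) was 25.1% of the WT mean of 26.1 ± 5.19 (SD, n = 2). The log2 fold change on the log2(FPKM + 1) scale was -1.84 (SE 0.19, 95% confidence interval -2.32 to -1.37), with a limma adjusted p of 0.0244. Promoter KO was at 29.2% of WT 1 and at 22% of WT 2, so the size of the difference was similar against either WT sample. The call was lost without WT 2 (limma adjusted p = 0.137) and without KO 1 (0.0898), settings in which no gene of the whole table was called, and also when all genes with any value above 0 were tested (0.134). Over 12 alternatives its adjusted p ranged from 0.0126 to 0.137, under 0.05 in 9 of them.

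*Lmo2* (chromosome 2, 103957986 to 103981878, plus strand) had 5.96 FPKM in WT 1, 9.23 in WT 2, 2.93 in KO 1 and 2.63 in KO 2. The genotypes were apart, and WT 2 was 1.55 times WT 1. The log2 fold change was -1.16 (SE 0.21, 95% confidence interval -1.67 to -0.65), with a limma adjusted p of 0.0476. This value was close to the threshold, and the call held in 3 of 12 alternatives, over which the adjusted p ranged from 0.0313 to 0.204. It was lost without WT 2 (0.204), without KO 1 (0.186) and without KO 2 (0.0856), where the log2 fold change was -0.88, -1.22 and -1.10. *Lmo2* shares 14936 bases with the gene *4931422A03Rik* on the opposite strand, and whether counting used the strand is not given in the sources used here, so reads of the 2 genes may not have been told apart.

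*Tal1* (chromosome 4, 115056426 to 115071755, plus strand), whose product acts in a complex with LMO2, was at 0.609 and 0.821 FPKM in WT 1 and WT 2 and at 0.637 and 0.526 in KO 1 and KO 2. The genotypes overlapped, and KO 1 was above WT 1. It did not pass the filter. With a filter of 0.5 FPKM in 2 samples its log2 fold change was -0.12 with a limma adjusted p of 0.636 (0.535 with no filter). *Tal1* was under 1 FPKM in all 4 samples, whereas *Etv2* and *Lmo2* were above it in all 4, and no test compared these genes with each other.

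*Kdr* (chromosome 5, 75932827 to 75978458, minus strand) had 1.67 FPKM in WT 1, 11.3 in WT 2, 0.364 in KO 1 and 0.289 in KO 2. Both promoter KO samples were below both WT samples, but the WT samples were 6.8-fold apart. Promoter KO was at 19.6% of WT 1 and at 2.88% of WT 2. The log2 fold change was -2.11 (SE 0.65, 95% confidence interval -3.72 to -0.51), with a limma adjusted p of 0.101. Without WT 1 it was -3.22, and without WT 2 it was -1.01. Such fits take no spread from the 6.8-fold gap between the WT samples, so only the size of the change is given. Over the alternatives that kept all 4 samples, the limma adjusted p ranged from 0.0575 to 0.222.

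The bases before the transcription start of *Etv2* and *Kdr*, the members past a fold change of 2 with an entry in the RefSeq promoter table (GRCm38.p6), show what lies at the start of these 2 genes. Of the 10 members, 7 had an entry, and *Lmo2*, *Hand1* and *Foxf1* are named only. Each window is the 250 bases upstream of the start, 5′ to 3′ on the strand of the gene, at chr7:30635853-30636102 for *Etv2* and chr5:75978456-75978705 for *Kdr*. Capitals mark matches, on either strand, to 6 motifs: GATAA (GATA factors), CANNTG (E-box), AGGTGT (T-box), CAGAC (SMAD), CCGGAA (ETS) and GTAAACA (forkhead).
*Etv2*: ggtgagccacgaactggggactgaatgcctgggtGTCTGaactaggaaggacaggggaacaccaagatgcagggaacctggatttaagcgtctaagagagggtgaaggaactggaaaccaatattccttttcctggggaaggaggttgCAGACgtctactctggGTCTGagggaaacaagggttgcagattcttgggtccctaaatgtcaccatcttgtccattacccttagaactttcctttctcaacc
*Kdr*: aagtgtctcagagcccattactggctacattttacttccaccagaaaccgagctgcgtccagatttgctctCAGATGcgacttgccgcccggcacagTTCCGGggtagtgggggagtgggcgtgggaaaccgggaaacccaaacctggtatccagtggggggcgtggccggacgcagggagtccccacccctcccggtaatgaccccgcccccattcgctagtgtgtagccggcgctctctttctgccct
The *Etv2* window held 3 matches to CAGAC and none to the other 5 motifs, while the *Kdr* window held 1 match each to CANNTG and CCGGAA. No match overlapped another in either window. Among 32851 promoter windows of this length, CAGAC was found in 42.2%, CANNTG in 66.2% and CCGGAA in 12%, against 22.6% for GATAA, 11.8% for AGGTGT and 3.17% for GTAAACA. The G and C content was 50% for *Etv2* and 61.6% for *Kdr*, beside a median of 52.4% over all windows. The motifs were chosen after the levels were seen, and a match describes letters and not a binding site.

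*Hand1* (chromosome 11, 57828705 to 57832818, minus strand) had 1.27 FPKM in WT 1, 11.3 in WT 2, 0.792 in KO 1 and 0.678 in KO 2. WT 2 was 8.9-fold above WT 1, whereas WT 1 was close to the promoter KO samples, which were at 58% of it. The log2 fold change was -1.61 (SE 0.72, 95% confidence interval -3.37 to 0.15) with a limma adjusted p of 0.192. Without WT 1 it was -2.83 and without WT 2 it was -0.39, fits that take no spread from the gap between the WT samples. Over the alternatives that kept all 4 samples, the limma adjusted p ranged from 0.12 to 0.333. The difference in *Hand1* thus rested on WT 2.

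**Figure D3:**
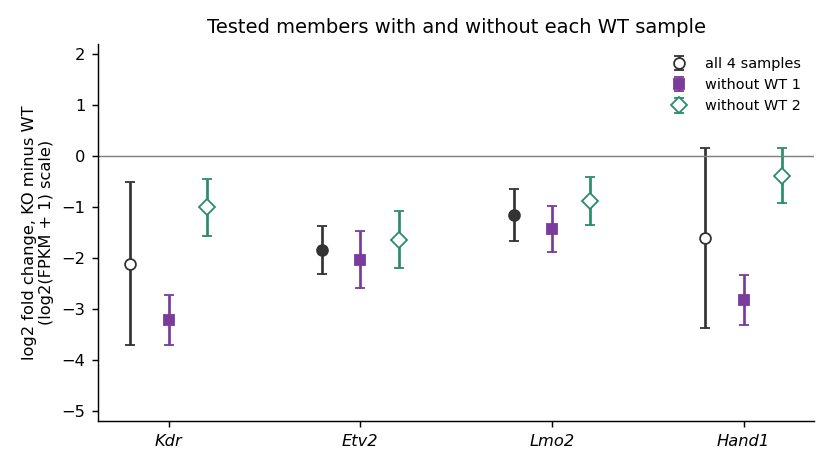
The log2 fold change (y axis, promoter KO minus WT on the log2(FPKM + 1) scale) of the 4 tested members (x axis) with all 4 samples, without WT 1 and without WT 2. Bars are 95% confidence intervals from limma, and filled symbols have an adjusted p under 0.05. Without WT 1 or WT 2, the bars and filling take no spread from the gap between the WT samples. Leaving out 1 WT sample moved *Kdr* between -3.22 and -1.01 and *Hand1* between -2.83 and -0.39, and *Etv2* between -2.04 and -1.65.

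*Isl1* (chromosome 13, 116298281 to 116309689, minus strand) had 0.746 and 1.97 FPKM in WT against 0.218 and 0.341 in promoter KO, without overlap. *Tbx20* (chromosome 9, 24718138 to 24774303, minus strand) had 0.799 and 0.971 FPKM in WT against 0.358 and 0.588 in promoter KO, also without overlap and with a small gap between the WT samples. Neither passed the filter. *Isl1* passes a filter of 0.5 FPKM through the WT samples alone. With a filter of 0.5 FPKM in 2 samples, the log2 fold change was -0.83 for *Isl1* (limma adjusted p = 0.112, and 0.201 with no filter) and -0.36 for *Tbx20* (0.192, and 0.194 with no filter).

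*Hand2* (chromosome 8, 57320983 to 57324633, plus strand) had 0.0199 FPKM in WT 1, 0.76 in WT 2 and 0.068 in KO 1, and it was listed at 0 in KO 2. These values correspond to about 1, 36, 3 and 0 fragments, so WT 2 was the only sample with more than a few. *Foxf1* (chromosome 8, 121084386 to 121088144, plus strand) was also highest in WT 2, with 0.0908 FPKM in WT 1, 1.1 in WT 2, 0.145 in KO 1 and 0.134 in KO 2, or about 5, 54, 7 and 6 fragments. Both genes overlapped between genotypes, and KO 1 and KO 2 were above WT 1 for *Foxf1*. Without WT 2 the difference, promoter KO minus WT on the log2(FPKM + 1) scale, turned from -0.37 to 0.02 for *Hand2* and from -0.41 to 0.06 for *Foxf1*. No difference between genotypes was detectable beside the spread of the WT samples. *Hand2* shares 3251 bases with the opposite-strand gene *Hand2os1*, and *Foxf1* lies within *Gm20388* on the same strand, so their reads may not have been told apart.

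*Nkx2-5* (chromosome 17, 26838664 to 26845009, minus strand), a marker of cardiac progenitors, had a higher mean in promoter KO. WT EBs had 0.463 and 0.832 FPKM, and promoter KO EBs 0.811 and 1.6. The promoter KO mean of 1.21 ± 0.56 FPKM (SD, n = 2) was 186% of the WT mean of 0.648 ± 0.261 (SD, n = 2), but KO 1 was below WT 2. With a filter of 0.5 FPKM in 2 samples the log2 fold change was 0.41 with a limma adjusted p of 0.277 (0.357 with no filter). The promoter KO mean was below the WT mean for the other 9 members, and for 47.9% of the 18215 gene rows. Without WT 2 this held for 7 members (45.4% of gene rows), as *Hand2* and *Foxf1* changed direction.

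Further genes of these lineages came from 12 lists holding 195 genes besides the members, of which 110 were tested, 13 were called lower and 14 higher. Of all 11941 tested genes, 1.89% were called lower and 1.68% higher. Some list genes passed the filter through the samples of the genotype with the higher level alone, so counts and medians over tested genes describe the lists and are no test of them. With all samples, 38 of the 110 tested list genes were lower and 30 higher at an unadjusted limma p under 0.05. No share of all tested genes at this threshold is given, so such counts, here and for each list below, only describe the lists. Without WT 2 or without KO 1 limma called 0 genes in every list, as in the whole table. Without WT 1 and without KO 2 the total was 26 each time, but the numbers of single lists moved and are given with each list. Among 9 VEGF ligands and receptors, 8 were tested, and limma called 1 lower and none higher (3 lower and 1 higher at an unadjusted p under 0.05), with a median log2 fold change of -0.42 beside 0.004 over all tested genes. Without WT 1 the number called lower was 0. The gene called was *Flt1*, which encodes a second VEGF receptor, at 6.91 and 7.98 FPKM in WT and 2.57 and 3.15 in promoter KO (log2 fold change -1.13, SE 0.15, limma adjusted p = 0.0371). *Vegfb*, the most abundant gene of this list, had 85.9 and 91.1 FPKM in WT against 61.8 and 78.2 in promoter KO (adjusted p = 0.135). Of 10 partners of the TAL1 and LMO2 complex, 6 were tested and limma called none, with 1 lower at an unadjusted p under 0.05 and a median of -0.26. This was *Tcf3*, which encodes E proteins and had the highest mean over the 4 samples and the largest change, with 115 and 109 FPKM in WT against 84.9 and 94.1 in promoter KO (adjusted p = 0.0782). *Ldb1*, named after its values were seen, was above it in promoter KO, at 104 and 94.3 FPKM.

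Of 25 endothelial genes, 16 were tested, with 4 lower and 5 higher at an unadjusted limma p under 0.05. Limma called 2 lower and 1 higher, with a median of 0.03. Without WT 1 the numbers were 1 lower and 0 higher, without KO 2 they were 1 and 2, and without WT 2 or KO 1 none was called by limma. *Aplnr*, the apelin receptor gene, had 7.95 and 25.5 FPKM in WT against 0.435 and 1.19 in promoter KO (log2 fold change -3.12, SE 0.50, limma adjusted p = 0.0422), and *Apln*, which encodes its ligand, had 43.6 and 42.3 FPKM in WT against 8.72 and 16 in promoter KO (-1.77, adjusted p = 0.0377). *Sox7*, which is also a marker of extraembryonic endoderm, was the gene called higher, from 0.289 and 0.221 FPKM to 1.87 and 1.66 (1.14, adjusted p = 0.0371), and it passed the filter through the promoter KO samples alone. *Egfl7*, with the highest mean over the 4 samples although *Apln* was above it in WT, had 28.1 and 31.2 FPKM in WT and 29.3 and 27.4 in promoter KO, with overlap between genotypes. In this list 7 genes were under 1 FPKM in all 4 samples, and *Emcn* was listed at 0 in all of them.

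Of 20 blood genes, 15 were under 1 FPKM in all 4 samples. Of the 5 tested, limma called none, with 1 lower and 1 higher at an unadjusted p under 0.05 and a median of -0.24. *Myb*, a regulator of blood progenitors with the highest mean of the list over the 4 samples, had 5.22 and 2.82 FPKM in WT and 14.1 and 8.66 in promoter KO (log2 fold change 1.31, limma adjusted p = 0.0649). In WT, *Kit*, named after its values were seen, was above it at 7.52 and 7.44 FPKM. The embryonic globin genes, named after their values were seen, were near 0, with *Hbb-bh1*, *Hbb-y* and *Hba-x* each listed at 0 in 3 of the 4 samples. The summed level of the list was 22.1 and 22.2 FPKM in WT and 26.1 and 24.3 in promoter KO.

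Of 27 lateral plate and extraembryonic mesoderm genes, 16 were tested, with 9 lower and none higher at an unadjusted limma p under 0.05. Limma called 3 lower and none higher, with a median of -1.01. The number called lower was 7 without WT 1, 0 without WT 2, 0 without KO 1 and 2 without KO 2. *Bmp7*, a BMP ligand gene, had 7.51 and 9.38 FPKM in WT against 1.98 and 2.28 in promoter KO (log2 fold change -1.59, limma adjusted p = 0.0233). *Gata6* was at 12.8 and 21.7 FPKM against 4.13 and 5.18 (-1.65, adjusted p = 0.0389), and *Msx1*, a homeobox gene downstream of BMP signaling, at 29.9 and 57.7 against 9.78 and 13.3 (-1.78, adjusted p = 0.0467). *Vim* was the most abundant gene, with 105 FPKM in WT 2 and 51.8, 52.8 and 44.4 in WT 1, KO 1 and KO 2. Summed over the list, WT 2 had 381 FPKM, against 196 in WT 1, 139 in KO 1 and 143 in KO 2.

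Of 25 cardiac genes, 11 were tested, with 4 lower and 1 higher at an unadjusted limma p under 0.05. Limma called 2 lower and none higher, with a median of -0.32. The number called lower was 3 without WT 1, 0 without WT 2 or KO 1 and 2 without KO 2, where 1 gene was called higher. Both genes called, *Mesp1* and *Fgf8*, also belong to the nascent mesoderm list. *Mesp1*, a regulator of the earliest cardiovascular progenitors, was at 27 FPKM in WT 1, 101 in WT 2, 0.759 in KO 1 and 4.24 in KO 2 (log2 fold change -4.14, SE 0.71, limma adjusted p = 0.0467). *Fgf8* was the most abundant gene, at 196 and 213 FPKM in WT and 48.9 and 77.7 in promoter KO (-1.71, adjusted p = 0.031). The summed level of the list was 248 and 372 FPKM in WT and 79.8 and 113 in promoter KO. *Fgf8* made up 65.9% of it, so the sum mostly reflects that gene and not the list as a whole. Counted by gene, 6 of the 25 were lower in KO 1 and KO 2 than in either WT sample, 7 were higher and 12 overlapped. Among the 18215 gene rows with any value above 0, 26.6% were lower, 29.6% higher and 43.8% overlapped, so the cardiac list was near the whole table.

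Lateral plate cells derive from nascent mesoderm. Of 20 nascent mesoderm genes, 17 were tested, 6 were called lower and 1 higher, with a median of -1.54. The number called lower was 5 without WT 1, 9 without KO 2 and 0 without WT 2 or KO 1, and the number called higher was 1 without WT 1 and 0 in the other 3 settings. Besides *Mesp1* and *Fgf8*, the genes called lower by limma were *Mixl1* (log2 fold change -2.74, adjusted p = 0.0389), *Evx1* (-2.59, 0.0472), *Lhx1* (-3.04, 0.0208) and *Gsc* (-2.33, 0.0372). *Nodal* was called higher, with 75.1 and 62.3 FPKM in WT and 117 and 112 in promoter KO (0.74, adjusted p = 0.0389). *T* had 306 and 448 FPKM in WT and 50.5 and 127 in promoter KO (-2.19, adjusted p = 0.0509). The 10 mesendoderm markers used to check the labels all had both promoter KO samples below both WT samples (26.6% of gene rows), and 6 of them were called lower (3 without WT 1, 0 without WT 2 or KO 1, 7 without KO 2), with a median of -2.26.

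**Figure D4:**
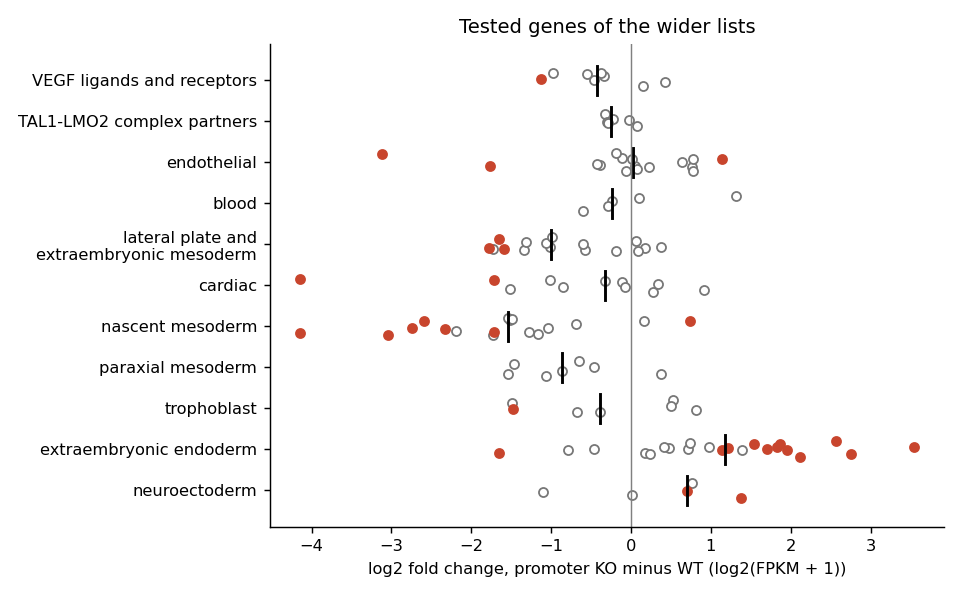
The log2 fold change (x axis, promoter KO minus WT on the log2(FPKM + 1) scale) of each tested gene in 11 gene lists (y axis). Filled red points have a limma adjusted p under 0.05, and black bars are list medians. The medians ranged from -1.54 for nascent mesoderm to 1.17 for extraembryonic endoderm.

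Several members are also active outside lateral plate mesoderm, such as *Hand1* in trophoblast, so markers of other cell types that EBs can hold were examined. Of 17 trophoblast genes, 7 were tested, with 3 lower and 2 higher at an unadjusted p under 0.05, and limma called none higher and 1, *Tfap2c*, lower (9.6 and 16.2 FPKM in WT, 3.87 and 3.83 in promoter KO, limma adjusted p = 0.0422), with a median of -0.39. The number called lower was 1 without WT 1 and 0 without WT 2, KO 1 or KO 2. *Prl2c2*, *Prl3d1* and *Tpbpa*, which mark differentiated trophoblast, were listed at 0 in all 4 samples. The summed level was 35.7 and 68.5 FPKM in WT and 31.7 and 32.7 in promoter KO, and the highest mean over the 4 samples was that of *Cdx2* (5.77, 25.4, 2.49 and 5.51 FPKM in WT 1, WT 2, KO 1 and KO 2), which nascent mesoderm also expresses. *Cdx2* was the most abundant of the list in WT 2 alone.

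Of 14 paraxial mesoderm genes, 7 were tested and limma called none, with 3 lower and none higher at an unadjusted p under 0.05 and a median of -0.87. Without WT 1 the number called lower was 3. The largest change among the tested genes was in *Tbx6*, with 1.29 and 6.74 FPKM in WT and 0.307 and 0.597 in promoter KO (adjusted p = 0.124), and it passed the filter through the WT samples alone. The summed level was 80.9 and 135 FPKM in WT and 81.2 and 64.5 in promoter KO, and *Tcf15* had the highest mean (48.5 and 33.1 in WT, 65.7 and 41.7 in promoter KO), although in WT 2 *Dll3*, named after its values were seen, was above it at 48.9. *Meox2* and *Ripply2* were listed at 0 in all 4 samples.

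Of 24 extraembryonic endoderm genes, 22 were tested, 11 were called higher and 1, *Gata6*, lower, with a median of 1.17. Without WT 1 there were 9 called higher and 1 lower, without KO 2 8 and 0, and without WT 2 or KO 1 none by limma. Those called higher by limma were *Sox7*, *Dab2*, *Ttr*, *Amn*, *Cubn*, *Lrp2*, *Lama1*, *Col4a1*, *Col4a2*, *Sparc* and *Srgn*, of which *Sox7* and *Cubn* passed the filter through the promoter KO samples alone. *Lama1*, a laminin gene of the basement membrane, had 1.51 and 2.18 FPKM in WT against 14.5 and 22.7 in promoter KO (log2 fold change 2.76, adjusted p = 0.0208), and *Srgn* had the largest change, from 2.33 and 0.254 FPKM to 20.8 and 24.9 (3.54, adjusted p = 0.0313). The summed level was 793 and 821 FPKM in WT and 1153 and 1356 in promoter KO, of which *Apoe* made up 72.4% (635 and 617 FPKM in WT, 808 and 924 in promoter KO). Of 17 neuroectoderm genes, 5 were tested, with 3 higher and 1 lower at an unadjusted limma p under 0.05. Limma called 2 higher and none lower, with a median of 0.70. Without WT 1, WT 2 or KO 1 none was called higher, and without KO 2 the numbers were 2 higher and 1 lower. The genes called with all samples were *Neurod1* (0.863 and 0.554 FPKM in WT, 3.89 and 2.99 in promoter KO, adjusted p = 0.0371) and *Sox3* (35.9 and 29, then 56.4 and 50, adjusted p = 0.0493). *Neurod1* passed the filter through the promoter KO samples alone. The neuroectoderm list summed to 220 and 219 FPKM in WT and 340 and 266 in promoter KO, led by *Sox2* (88.4, 102, 200 and 129 FPKM in the same sample order as above). The part that a change in cell types had in the levels of the 10 members was not tested.

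The pattern of *Etv2* and *Lmo2*, the 2 members with the highest mean over the 4 samples (in WT 2, *Kdr* and *Hand1* were above *Lmo2*), was compared with that of 1018 tested genes with a range of at least 1 on the log2(FPKM + 1) scale, by the Euclidean distance of centred values over the 4 samples. The nearest genes to *Etv2* were *H2-T9* (distance 0.307), *Miip* (0.362) and *Cxcr4* (0.472), and 4 genes lay within 0.5. The nearest to *Lmo2* were *Tap2* (0.0603), *Il15ra* (0.0726) and *Lrrc51* (0.0883), with 172 genes within 0.5. These distances describe 4 samples and carry no test.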

How the data were processed

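RNA-seq values of 4 samples of day 3 EBs (2 WT, 2 promoter KO) were analysed, grouped by the genotype in the labels. The values deposited by the authors, 1 file per sample, were taken as FPKM, which had been normalized for transcript length and library size. The files name no unit. The submitters' processing notes name HISAT2 2.1.0, Cufflinks, Cuffnorm and mm10, whereas the methods of the study name TopHat, Cufflinks, Cuffdiff and RPKM, and which was used for these files is not settled here. Normalization across samples by the authors limits what can be said of overall RNA content, and low genes carry few fragments.

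From these values, log2(FPKM + 1) was tested for genotype with limma 3.58.1 in R 4.3.3 (lmFit, eBayes with trend) in the 11941 genes that reached 1 FPKM in 2 or more samples, with Benjamini-Hochberg adjustment over all of them. Fold changes on this scale understate the change of low genes. The procedure was tested on simulated data. Depth was estimated from 4101 genes with 1 transcript over 500 bases in GENCODE M21, with fragments assumed to be 200 bases long. Coordinates are from GENCODE M21 (GRCm38, the build mm10) and promoter sequences from RefSeq (GRCm38.p6). Tables were handled with Python 3.11.15 and pandas 2.3.3.

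The members and lists were chosen with earlier results of these data known. The rule for naming genes took the members, list genes with an adjusted p under 0.05, the tested gene with the highest mean and that with the largest change in each list, the 3 genes nearest to the 2 members with the highest mean, and *Gm11549*. The mesendoderm markers are named as a whole list, and genes that overlap a member from the annotation. All other genes, those listed at 0 included, were named after their values were seen. Alternatives were each sample left out, a replicate block, a pseudocount of 0.1, other filters, limma without trend, median centring, quantile normalization, the ratio of mean FPKM and other thresholds for expression. The alternative planned for counts was left out, as the unit is FPKM.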

Additional observations from a re-analysis of the deposited data

How the results depend on the processing

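The labels give both genotypes the numbers 1 and 2. Across 11941 genes, the distances from the genotype mean correlated at 0.0348 between samples with the same number. A value over all genes cannot settle whether same-numbered samples share a batch or culture that affects some genes, and the labels name none. With the replicate number as a block, 667 genes of the whole table were lower and 535 higher (226 and 201 without it), 2 members were called lower and 0 higher, 4 were past a fold change of 2, and 45 genes of the wider lists were called (27 without the block).

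The 2 members called lower became 1 with a filter of 0.5 FPKM, a filter of a mean of 5 FPKM, limma without trend, median centring and quantile normalization, *Lmo2* being lost each time while the genes of the whole table called lower went from 226 to 140, 108, 27, 126 and 169, and 0 with no filter, where no gene of the 18215 tested was called. Leaving out 1 sample at a time gave 0 to 4 members called lower and 0 to 26 genes of the wider lists. In these fits the lone sample is assumed to vary like those of the other genotype, and without WT 2 or without KO 1 no gene of the whole table was called. The wider lists had 0 called genes with no filter and 11 without trend. No member was called higher under any of these settings. Members expressed in WT numbered 7 at a threshold of 0.5 FPKM and 2 at 2 FPKM. The number at 1 FPKM with 1 WT sample left out, an alternative chosen after seeing the data, was 4 to 6. Of 96 values of the members' log2 fold changes under these settings, 67 kept their direction and side of the threshold or, where there was no test, moved by less than 1 SD between replicates, 12 lost a call, 2 gained one and 15 without a test moved by more than 1 SD. The 67 include *Hand2* and *Foxf1*, whose sign turned without WT 2. The cause of these changes was not tested. *Hand2* and *Foxf1* rested on 0 to 7 estimated fragments in 3 of the 4 samples.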

Other observations

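Both promoter KO samples lay between a lower WT 1 and a higher WT 2 for 5 of 27 lateral plate and extraembryonic mesoderm genes and 4 of 25 cardiac genes, beside 3.89% of the 18215 gene rows with any value above 0. In each other list the number was 0 or 1, such as 0 of 25 endothelial and 1 of 20 nascent mesoderm genes. Among the 10 members it was 1. The examples below were chosen for this order after their values were seen. *Tbx3* had 1.58 FPKM in WT 1, 8.63 in WT 2, 6.16 in KO 1 and 4.82 in KO 2, and *Myl7*, an atrial myosin light chain gene, had 2.82, 14.3, 6.92 and 3.76 in the same order. *Gata4* had 5.02, 19.4, 9.68 and 13.8 FPKM, and *Bmp4* had 3.73, 8.9, 7.25 and 5.13.

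Of 25 endothelial genes, 8 had KO 1 and KO 2 higher than either WT sample, 5 had both lower and 12 overlapped, beside 29.6%, 26.6% and 43.8% of the 18215 gene rows with any value above 0. Those higher, named here after their values were seen, included *Tek*, with 0.387 and 0.431 FPKM in WT and 1.77 and 1.05 in promoter KO (limma adjusted p = 0.0743), *Pecam1*, with 1.83 and 2.97 against 5.95 and 3.78 (0.107), and *Eng*, with 6.69 and 7.22 against 17.3 and 9.14 (0.125). None of these 3 had an adjusted p under 0.05, and *Tek* passed the filter through the promoter KO samples alone.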
